A study of Homo sapiens with 24 samples.

Results

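Long noncoding RNA genes on the array were chosen by symbol: symbols that begin with LINC (intergenic transcripts) or SNHG (hosts of small nucleolar RNAs), that end in -AS1 or -AS2 (antisense), -DT (divergent) or -IT1 (intronic), or that begin with MIR and end in HG (microRNA hosts). The array listed 1869 such genes on probe sets with 1 symbol, 9.45% of the 19775 genes named. Of these, 338 reached a log2 intensity of 4 or more in at least 3 of 24 arrays and were tested (18.1%, against 55.5% of all named genes), and they made up 3.08% of the 10971 genes tested. The 338 were 182 antisense, 82 LINC, 50 divergent, 10 intronic, 9 microRNA host and 5 snoRNA host genes. Of the 1531 not tested, 1506 never reached 4 in any array and 25 did so in 1 or 2 arrays, so the low or absent transcripts among them are not described here.

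The arrays held RNA of 2 human leukemia lines, with 3 biological replicates in each of 8 groups. MV4-11, a biphenotypic B myelomonocytic line with the MLL-AF4 fusion, was grown in IMDM with 10% serum and 3 uM EPZ004777, an inhibitor of the histone methyltransferase DOT1L, or with the vehicle 0.1% DMSO, for 2, 4 or 6 days. MOLM-13, an acute myeloid line with the MLL-AF9 fusion, was grown in RPMI with 10% serum and the same inhibitor or vehicle for 6 days. Each line is 1 model of its fusion, the medium differs between the lines and cannot be told apart from the line, and how the replicates were made is not described, so p-values measure the spread between these samples, which may be technical.

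Long noncoding RNAs are transcripts without a known protein product, usually at low levels in the cell. Antisense and divergent transcripts start on the strand opposite to a coding gene, often from a shared promoter, and snoRNA and microRNA hosts carry small RNAs inside their transcripts, which are released from introns or hairpins. DOT1L methylates lysine 79 of histone H3 along transcribed genes, and MLL fusion proteins draw it to their targets. For most LINC genes named below no function is well enough known to be stated.

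The 9 microRNA hosts carry 26 mature microRNAs with 23 distinct seeds in RefSeq (GRCh38.p14). Those of the hosts that differed most between treated and vehicle cells are shown 5′ to 3′ with the seed, bases 2 to 8, in capitals. The pairs from MIR181A2HG (chr9:124692480-124692502 and chr9:124693725-124693747, plus strand) and from MIRLET7BHG (chr22:46112752-46112773 and chr22:46113691-46113712, plus strand) share their seeds. The arrays measured the hosts, not these mature forms.
hsa-miR-181a-5p: aACAUUCAacgcugucggugagu
hsa-miR-181b-5p: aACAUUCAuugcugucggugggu
hsa-let-7a-5p: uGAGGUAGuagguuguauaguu
hsa-let-7b-5p: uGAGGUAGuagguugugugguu
The other hosts shown are MIR646HG (microRNA at chr20:60308534-60308552, plus strand), MIR550A3HG (chr7:29680748-29680769, minus strand), MIR1915HG (chr10:21496576-21496595, minus strand) and MIR9-3HG (chr15:89368032-89368054, plus strand).
hsa-miR-646: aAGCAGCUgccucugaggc
hsa-miR-550a-3p: uGUCUUACucccucaggcacau
hsa-miR-1915-3p: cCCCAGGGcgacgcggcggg
hsa-miR-9-5p: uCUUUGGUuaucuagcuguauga

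Many snoRNA host RNAs begin with a C and a run of pyrimidines, like the mRNAs of the translation machinery. The 60 bases around the annotated start of 4 hosts are shown with the run of C and T that begins at the start base in capitals. The windows lie at chr5:139274071-139274130 (SNHG4, plus strand, which holds SNORA74A and SNORA74D), chr16:2155329-2155388 (SNHG19, minus strand, with SNORD60), chr6:31834886-31834945 (SNHG32, plus strand, with SNORD48 and SNORD52) and chr3:183447578-183447637 (SNHG33, plus strand).
SNHG4: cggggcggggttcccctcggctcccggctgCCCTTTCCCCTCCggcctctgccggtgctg
SNHG19: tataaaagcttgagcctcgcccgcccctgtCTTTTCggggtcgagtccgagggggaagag
SNHG32: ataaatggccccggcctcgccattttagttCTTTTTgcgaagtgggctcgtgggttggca
SNHG33: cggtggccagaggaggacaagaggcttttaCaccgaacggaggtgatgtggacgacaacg
The run was 13 bases long in SNHG4, 6 in SNHG19, 6 in SNHG32 and 1 in SNHG33, and the annotated start of SNHG17 was an A. Among 27305 promoter windows of RefSeq, 5.45% have a C at the start base followed by at least 3 bases that are C or T.

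Promoters of 261 of the 338 genes could be matched in RefSeq (250 bases before the start to 50 from it). Their median was 24 CG pairs per 300 bases, and 14.6% had under 5, against 49.6% of 11462 noncoding and 16.6% of 15843 coding genes in the same table. Both strands give the same count. Windows of 3 genes that start beside a coding gene are shown because member and partner are set against each other below, with the bases between the 2 starts in capitals. They are TRAM2-AS1 (chr6:52576952-52577251, plus strand, start bases 142 apart), IL10RB-DT (chr21:33266211-33266510, minus strand, 107 apart) and METTL14-DT (chr4:118685292-118685591, minus strand, 51 apart).
TRAM2-AS1: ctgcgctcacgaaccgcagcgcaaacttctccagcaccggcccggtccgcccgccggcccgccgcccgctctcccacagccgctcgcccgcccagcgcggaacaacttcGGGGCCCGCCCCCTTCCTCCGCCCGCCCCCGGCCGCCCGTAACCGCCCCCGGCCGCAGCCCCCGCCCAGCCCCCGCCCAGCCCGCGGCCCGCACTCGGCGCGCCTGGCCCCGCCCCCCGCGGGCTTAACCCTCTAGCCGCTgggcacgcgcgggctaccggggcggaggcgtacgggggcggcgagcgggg
IL10RB-DT: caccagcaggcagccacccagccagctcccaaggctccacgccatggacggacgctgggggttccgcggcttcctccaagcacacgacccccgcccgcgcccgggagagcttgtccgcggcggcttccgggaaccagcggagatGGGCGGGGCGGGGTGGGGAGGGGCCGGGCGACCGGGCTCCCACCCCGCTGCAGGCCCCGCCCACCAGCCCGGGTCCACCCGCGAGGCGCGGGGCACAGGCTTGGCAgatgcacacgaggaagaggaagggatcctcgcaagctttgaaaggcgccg
METTL14-DT: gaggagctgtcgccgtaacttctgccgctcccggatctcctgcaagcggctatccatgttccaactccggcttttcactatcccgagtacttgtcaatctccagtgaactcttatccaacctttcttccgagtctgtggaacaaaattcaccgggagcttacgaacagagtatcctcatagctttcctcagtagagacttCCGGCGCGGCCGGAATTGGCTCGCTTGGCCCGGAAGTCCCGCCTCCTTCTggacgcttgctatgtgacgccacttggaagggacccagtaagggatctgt
The window of LINC02035 (chr3:122886263-122886562, plus strand), a gene with a large change in both lines, held 3 CG pairs, in capitals.
LINC02035: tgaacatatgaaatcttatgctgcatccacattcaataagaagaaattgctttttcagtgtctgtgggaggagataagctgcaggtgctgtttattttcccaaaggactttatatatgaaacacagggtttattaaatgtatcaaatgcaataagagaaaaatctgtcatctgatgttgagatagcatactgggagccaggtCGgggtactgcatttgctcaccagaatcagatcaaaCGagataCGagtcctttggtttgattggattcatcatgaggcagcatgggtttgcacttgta

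Levels below are log2 GCRMA intensities of 1 probe set per gene, which have no common scale between genes. Differences are log2 fold changes of treated minus vehicle with the SE of limma's model, 3 arrays a group, and calls were made where the p adjusted over all 10971 genes was under 0.05. The lowest value of the files was 2.19 in each of the arrays. A value there, or one that a probe set repeats over many arrays, gives no measurable level, and the size of a change from it depends on the background adjustment. Of the 338, 65 (19.2%) held 1 value in at least 6 arrays, against 7.89% of all genes. HDAC4-AS1, ITPKB-IT1, LINC02762, MIR1-1HG and TNFRSF14-AS1 passed the filter through a value repeated in 18 or more arrays. LINC01857, LINC02153, METTL14-DT and LINC00563, among others, passed it only through the groups in which they were high. For such genes the filter and the calls are not independent. Fewer cells of a type and less RNA per cell cannot be told apart in these bulk samples. Myeloid markers were at 4 or more for 8 of 9 genes tested (9 of 9 in treated MOLM-13), with summed levels of 94.58 to 95.35 in treated and 86.91 to 87.77 in vehicle MOLM-13 cells and of 76.87 to 85.10 over the MV4-11 arrays. Of the T cell markers CD3E, CD3G and CD2 stayed at 2.19 in every group mean, and CD3D had a mean of 8.12 in treated and 5.38 in vehicle MOLM-13 cells. Among B cell markers CD79B stood at 4.46 to 5.30 in the group means, with MS4A1 and CD79A at 2.19 to 2.95. The difference between the 3′ and 5′ control probe sets of ACTB and GAPDH, a sign of RNA quality, was 2.10 to 2.84 in treated and 0.95 to 1.15 in vehicle MOLM-13 cells. It was 0.83, 0.86 and 1.91 in treated and 0.57 to 0.58 in vehicle MV4-11 cells on day 6, and 0.53 to 0.82 in the other groups. For differences between treated and vehicle cells on day 6, values with this difference as a covariate are given where it changes a call or moves a called value by over 1.5 times. Beyond that, its part was not tested. Without the array at 1.91, 161 members and 59.3% of all genes were called on day 6. Of the 62 day 6 calls of genes named in the text 61 held, all but that of MIRLET7BHG. Of those that held, 1 moved by over 1.5 times, that of NCK1-DT (-0.40 without the array, adjusted p = 0.0457, against -0.69 with all arrays, and -0.14 with the covariate, adjusted p = 0.341). Values given as equal agree to 2 decimals.

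The number of changed members grew with time in MV4-11 cells. On day 2, 37 of 338 were called (29 higher and 8 lower, 10.9%, against 12.5% of all genes), and 24 without vehicle array 2 or vehicle array 3. On day 4, 140 were called (109 higher and 31 lower, 41.4%, against 46.2%). On day 6, 173 were called (127 higher and 46 lower, 51.2%, against 62%). In MOLM-13 cells on day 6, 192 were called (130 higher and 62 lower, 56.8%, against 65.8%). Without a fold minimum, the share of calls was thus near or below that of all genes in each of these comparisons. Calls at 2-fold or more took 0.888%, 9.76% and 16.9% of members on days 2, 4 and 6, against 1.3%, 7% and 11.7%. In MOLM-13 cells they took 16.6%, against 12.8% of all genes. Treated and vehicle arrays did not overlap in 34.3%, 52.1% and 56.2% of members on days 2, 4 and 6 and in 55.9% in MOLM-13 cells, against 38.9%, 59.1%, 64.8% and 68.3% of all genes.

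Calls in the higher direction took 8.58%, 32.2% and 37.6% of members on days 2, 4 and 6 and 38.5% in MOLM-13 cells, against 8.82%, 25.2%, 33.6% and 29.3% of all genes. Calls in the lower direction took 2.37%, 9.17%, 13.6% and 18.3%, against 3.68%, 21%, 28.4% and 36.5%. This balance turned with the scaling on day 6: after a further quantile normalization 90 members were higher and 104 lower in treated MV4-11 cells, and with a common median 114 and 62. The same 2 scalings gave 21 and 17 or 24 and 11 on day 2, 91 and 40 or 102 and 32 on day 4, and 117 and 71 or 153 and 51 in MOLM-13 cells. The median difference of members was 0.07, 0.13, 0.15 and 0.15, against 0.02, 0.01, 0.04 and -0.03 over all genes.

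**Figure D1:**
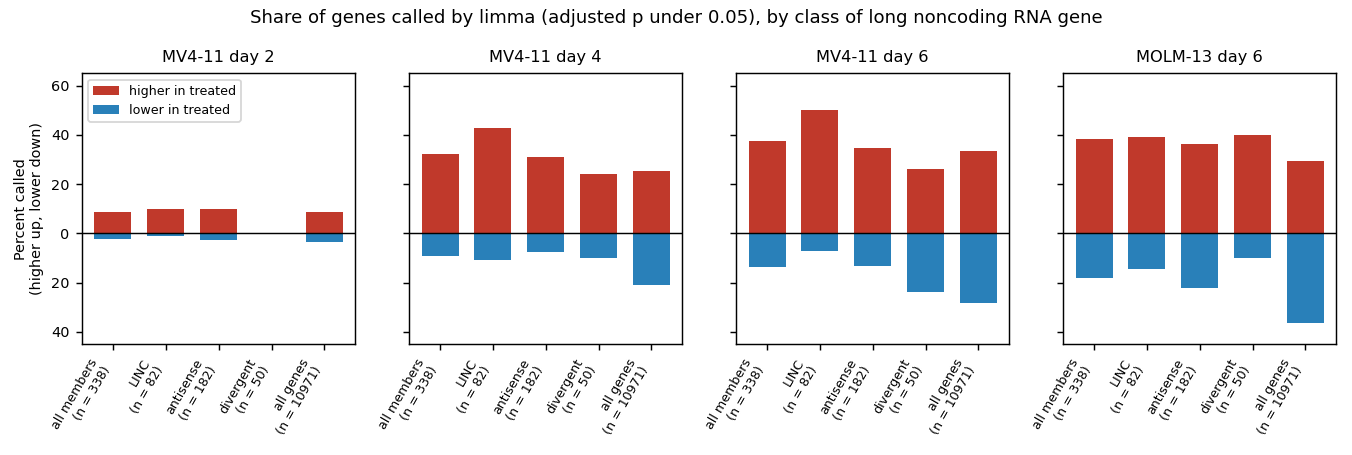
Percent of genes called by limma (y axis, higher in treated cells drawn up and lower drawn down) by class of noncoding gene and for all 10971 genes, in 4 comparisons of treated with vehicle cells. On day 6 in MV4-11 cells 41 of 82 LINC genes were higher and 6 lower, while 13 of 50 divergent genes were higher and 12 lower.

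By class and with the values as deposited, LINC genes were called mostly in the higher direction. Of 82, 8 were higher and 1 lower on day 2, 35 and 9 on day 4, and 41 and 6 on day 6. In MOLM-13 cells 32 were higher and 12 lower. Calls in either direction took 11%, 53.7%, 57.3% and 53.7% of them, against 12.5%, 46.2%, 62% and 65.8% of all genes. Class counts were not made after the further quantile normalization, which turned the balance of members on day 6. Antisense genes counted 18 higher and 5 lower of 182 on day 2, 56 and 14 on day 4, 63 and 24 on day 6, and 66 and 40 in MOLM-13 cells. Of the 50 divergent genes limma called 0 on day 2, with 9 at an unadjusted p under 0.05. Later counts were 12 higher and 5 lower on day 4, 13 and 12 on day 6, and 20 and 5 in MOLM-13 cells. In the 4 comparisons 12.6%, 38.5%, 47.8% and 58.2% of antisense and 0%, 34%, 50% and 50% of divergent genes were called. In all, 277 members (82%) were called in at least 1 of the 4 comparisons, against 88.3% of all genes.

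Among the MV4-11 rises, LINC01857 came from the bottom of its range. On day 2 it read 2.75, 2.91 and 3.21 in treated cells, against 2.52, 2.52 and 2.50 in vehicle cells (0.45 ± 0.09, adjusted p = 0.0031). On day 4 it read 5.96, 5.55 and 5.81 in treated cells, against 2.79, 2.84 and 2.66 in vehicle cells (3.01, adjusted p = 6.21e-15). On day 6 it read 6.71, 6.79 and 6.70 in treated cells, against 2.52 in all 3 vehicle arrays (4.22, adjusted p = 1.71e-17). The groups did not overlap on any day, and in MOLM-13 cells all 6 arrays stood at 2.50 to 2.52.

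LINC02153, on chromosome 8, rose later and in both lines. On day 4 it read 4.84, 5.12 and 4.60 in treated cells, against 2.48, 2.19 and 2.21 in vehicle cells (2.56 ± 0.16, adjusted p = 9.34e-11). On day 6 it read 6.18, 6.08 and 6.65 in treated cells, against 2.20, 2.25 and 2.40 in vehicle cells (4.02, adjusted p = 6.84e-14). Treated MOLM-13 cells had 5.65, 5.17 and 5.79, against 2.69, 2.56 and 2.51 in vehicle cells (2.95, adjusted p = 6.3e-12). Treated arrays lay above vehicle arrays each time, while on day 2 the difference was 0.17 (adjusted p = 0.575). A second probe set of the gene differed by no more than 0.09 in any of the 4 comparisons, with a mean of 2.26 over all arrays.

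LINC02035, whose promoter window is shown above, had the same order. On day 4 it read 7.02, 6.63 and 6.88 in treated cells, against 4.61, 4.87 and 4.82 in vehicle cells (2.07 ± 0.20, adjusted p = 6.04e-08). Day 6 values were 7.16, 7.54 and 7.92 in treated cells, against 4.60, 4.37 and 4.37 in vehicle cells (3.10, adjusted p = 1.1e-10). In MOLM-13 cells it read 5.69, 5.11 and 4.59 in treated cells, against 2.72 in all 3 vehicle arrays (2.41, adjusted p = 3.62e-09). Again no treated array overlapped a vehicle array, and the day 2 difference of 0.51 was not called (adjusted p = 0.112).

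**Figure D2:**
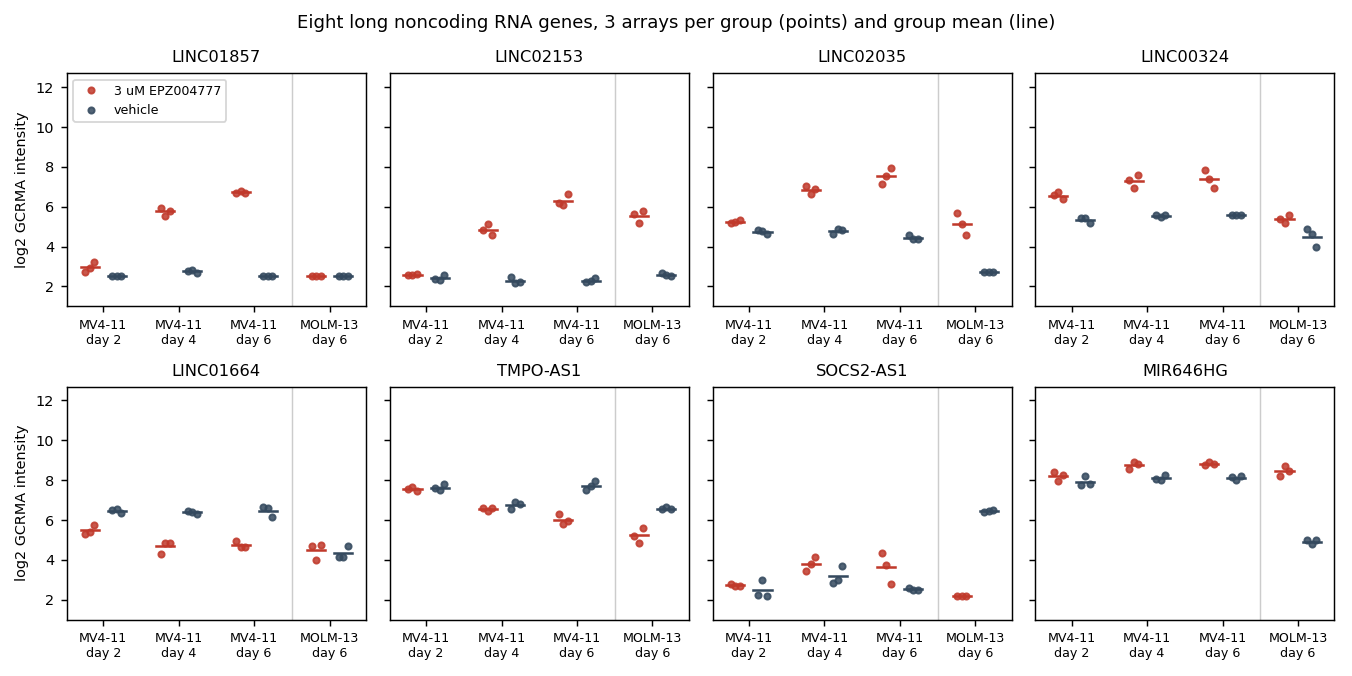
Log2 GCRMA intensity (y axis) of 8 noncoding genes in each of 24 arrays (points, treated in red left of vehicle in dark blue; the line is the mean of 3 arrays). LINC01857 rises to 6.70 to 6.79 in treated MV4-11 cells on day 6 and stays at 2.50 to 2.52 in MOLM-13 cells, while SOCS2-AS1 stands at 2.19 to 2.20 in treated and 6.41 to 6.49 in vehicle MOLM-13 cells.

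Other rises were present on day 2. RPH3AL-AS1, antisense to a gene of vesicle exocytosis, read 4.83, 5.16 and 4.61 in treated cells on day 2, against 2.88, 3.30 and 3.62 in vehicle cells (1.60 ± 0.15, adjusted p = 3.16e-07). It was 2.36 higher on day 4 and 2.86 higher on day 6 (adjusted p = 3.93e-12), and all 6 MOLM-13 arrays stood at 2.54. LINC00324 read 6.58, 6.72 and 6.39 in treated cells on day 2, against 5.44, 5.43 and 5.19 in vehicle cells (1.21 ± 0.22, adjusted p = 0.000799). Its groups stayed apart at 1.75 on day 4, 1.82 on day 6 and 0.88 in MOLM-13 cells (adjusted p = 0.00134), or 1.62 with the covariate. LINC02724 rose by 1.17, 1.74 and 1.88 on the 3 days and had 0.29 in MOLM-13 cells (adjusted p = 0.111). These were the 3 members called at 2-fold or more on day 2 (0.888%, against 1.3% of all genes).

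LINC00173, LINC01140, LINC00663 and GAS6-AS1 were higher in treated cells on day 6. The day 4 differences were 1.67 in LINC00173 (adjusted p = 1.93e-05), 0.59 in LINC01140 (adjusted p = 0.0233), 1.01 in GAS6-AS1 (adjusted p = 0.0272) and 0.50 in LINC00663 (adjusted p = 0.134). On day 6 LINC00173 read 5.04, 4.01 and 5.68 in treated cells, against 2.77 in all vehicle arrays (2.14, adjusted p = 4.74e-07), and stood at 2.77 in all MOLM-13 arrays. LINC01140 read 4.84, 4.70 and 3.95 in treated cells, against 2.19 in all vehicle arrays (2.31, adjusted p = 8.97e-09). LINC00663 read 5.53, 5.40 and 5.24 in treated cells, against 3.48, 3.42 and 3.23 in vehicle cells (2.01, adjusted p = 1.96e-06). Treated arrays lay above vehicle arrays in all 3 genes. GAS6-AS1, antisense to the gene of a ligand of TAM receptor kinases, read 7.51, 7.72 and 8.52 in treated cells, against 5.40, 5.63 and 5.81 in vehicle cells (2.31, adjusted p = 1.58e-05), and its second probe set differed by 1.39. Its change of -0.53 in MOLM-13 cells was not called (adjusted p = 0.209). The MOLM-13 difference of LINC01140 was 0.62 (adjusted p = 0.0108), 0.44 (adjusted p = 0.0761) without treated array 1 and 1.68 with the covariate (adjusted p = 4.78e-05).

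LINC01664 fell in MV4-11 cells from day 2. It read 5.29, 5.38 and 5.76 in treated cells, against 6.48, 6.53 and 6.34 in vehicle cells on day 2 (-0.98 ± 0.20, adjusted p = 0.00264). On day 6 it read 4.94, 4.67 and 4.66 in treated cells, against 6.63, 6.61 and 6.16 in vehicle cells (-1.71, adjusted p = 4.31e-07). The groups did not overlap, and the MOLM-13 difference was 0.15 (adjusted p = 0.523).

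TMPO-AS1, antisense to the gene of a nuclear lamina protein, fell on day 6 in both lines. It read 6.30, 5.80 and 5.95 in treated cells, against 7.50, 7.71 and 7.97 in vehicle MV4-11 cells (-1.71 ± 0.16, adjusted p = 1.82e-08). In MOLM-13 cells it read 5.21, 4.86 and 5.61 in treated cells, against 6.53, 6.64 and 6.56 in vehicle cells (-1.35, adjusted p = 3.7e-07). Treated arrays lay below vehicle arrays in both lines, and the inhibitor effects differed by 0.36 between MOLM-13 and MV4-11 cells (adjusted p = 0.191). TMPO itself fell by 0.74 in MV4-11 and by 0.38 in MOLM-13 cells, where it was -0.20 with the covariate (adjusted p = 0.205).

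RUNX1-IT1 and DOCK8-AS1 fell in MV4-11 cells and rose in MOLM-13 cells. RUNX1-IT1, inside the gene of a blood cell transcription factor, read 8.52, 8.61 and 9.06 in treated MV4-11 cells on day 6, against 9.21, 9.34 and 9.31 in vehicle cells (-0.56, adjusted p = 0.00219). In MOLM-13 cells it read 10.99, 10.94 and 10.94 in treated cells, against 9.92, 10.01 and 10.05 in vehicle cells (0.96, adjusted p = 7.23e-06), a difference of 0.55 with the RNA quality covariate (adjusted p = 0.0852). DOCK8-AS1, antisense to the gene of a guanine nucleotide exchange factor, read 6.66, 6.67 and 6.19 in treated MV4-11 cells on day 6, against 7.72, 7.62 and 7.48 in vehicle cells (-1.10, adjusted p = 1.24e-07). It read 6.51, 6.40 and 6.23 in treated MOLM-13 cells, against 5.74, 5.81 and 5.65 in vehicle cells (0.65, adjusted p = 7.04e-05, and 1.11 with the covariate). No groups overlapped, and the tests of the difference in effect gave 1.52 for RUNX1-IT1 (adjusted p = 4.39e-06) and 1.75 for DOCK8-AS1 (adjusted p = 6.13e-08).

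On all 3 days 27 members were called (20 higher, 7 lower and 0 in mixed direction), a count of 1168 or 10.6% over all genes. The 7 lower were DOCK8-AS1, INHBA-AS1, LINC01664, PAN3-AS1, RUNX1-IT1, RUSC1-AS1 and ZNF232-AS1. Their day 2 differences were small, between -0.35 and -0.98, and all but that of LINC01664 were lost when single arrays were left out. Any of the 6 arrays left out ended the call of INHBA-AS1 (-0.77 to -0.67) and PAN3-AS1 (-0.42 to -0.35). Array 1 or 3 of either group ended that of DOCK8-AS1 (-0.38 to -0.32), array 2 or 3 of either group those of RUNX1-IT1 (-0.51 to -0.40) and RUSC1-AS1 (-0.58 to -0.46), and treated array 1 that of ZNF232-AS1 (-0.29). In 17 members calls were made in all 4 comparisons, 10 of them higher in each, including LINC00324, LINC01410, SNHG19 and TRAM2-AS1, and 4 lower in each (INHBA-AS1, PAN3-AS1, RUSC1-AS1 and ZNF232-AS1). The same count was not made over all genes, so these numbers are not read as a trait of the members. The MOLM-13 call of INHBA-AS1 (-0.56, adjusted p = 0.0377) was lost without treated array 2 or 3 or vehicle array 1 or 2 (-0.61 to -0.28) and turned to 0.51 with the covariate (adjusted p = 0.213), and that of RUSC1-AS1 (-0.38, adjusted p = 0.0399) without any of the 6 (-0.40 to -0.33) and with the covariate (-0.52, adjusted p = 0.171). LINC01410 was 0.45, 1.06 and 1.56 higher on days 2, 4 and 6 and 1.74 higher in MOLM-13 cells.

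The inhibitor effect itself differed between days 6 and 2 in 95 members (69 in the higher and 26 in the lower direction, 28.1%, against 39.6% of all genes). The split was 57 and 50 after a further quantile normalization and 61 and 32 with a common median. It grew by 3.85 in LINC02153 (adjusted p = 2.26e-10), by 3.77 in LINC01857 (adjusted p = 1.84e-13) and by 2.59 in LINC02035 (adjusted p = 9.63e-07). The effect difference was -1.64 in TMPO-AS1 (adjusted p = 1.3e-05) and -1.10 in SNHG4 (adjusted p = 0.00107).

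Vehicle cells of day 4 differed from those of days 2 and 6 in 68 members (43 higher and 25 lower, 20.1%, against 28.6% of all genes), with no inhibitor present. The split was 35 and 44 after a further quantile normalization and 42 and 28 with a common median. Without vehicle array 3 of day 4, 41 were called (21 higher and 20 lower). ITGB2-AS1 was 1.80 higher in day 4 vehicle cells, SNHG33 1.62 and RUSC1-AS1 0.84, while TMPO-AS1 was at -0.92. Against the vehicle arrays of days 2 and 6 in place of day 4, the day 4 effect was -0.72 in ITGB2-AS1 (adjusted p = 0.00638), against -2.52 with its own vehicle arrays. In TMPO-AS1 it was -1.13, against -0.21, and in SNHG33 1.34, against -0.28. With those vehicle arrays 170 members were called on day 4 (128 higher and 42 lower). The share of all genes called with them is not given here.

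In MOLM-13 cells the largest rise was that of ITGB2-AS1, antisense to the gene of the β2 integrin of leukocyte adhesion. It read 10.59, 11.04 and 10.69 in treated cells, against 6.28, 6.50 and 6.50 in vehicle cells (4.35 ± 0.24, adjusted p = 1.52e-11). In MV4-11 cells on day 6 it read 5.78, 5.71 and 6.21 in treated cells, against 7.91, 7.19 and 6.39 in vehicle cells (-1.26, adjusted p = 0.00015). Thus treated arrays lay above vehicle arrays in one line and below them in the other. Its second probe set gave 3.42 in MOLM-13 and -0.23 in MV4-11 cells.

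MIR646HG read 8.19, 8.73 and 8.44 in treated MOLM-13 cells, against 5.0, 4.79 and 4.98 in vehicle cells (3.53, adjusted p = 5.64e-14). METTL14-DT read 6.41, 5.45 and 6.18 in treated cells, against 2.19, 2.31 and 3.40 in vehicle cells (3.38, adjusted p = 1.88e-10), and all 18 MV4-11 arrays read 2.19 to 2 decimals. It passed the filter only through the treated MOLM-13 arrays. ASAP1-IT1 read 7.53, 7.80 and 7.45 in treated cells, against 5.50, 5.60 and 5.32 in vehicle cells (2.12, adjusted p = 4.56e-12). Treated arrays lay above vehicle arrays in each gene. TRHDE-AS1 rose by 2.08, LINC00537 by 1.97, TOX-DT by 1.88, LINC01410 by 1.74 and SND1-IT1 by 1.24. With the RNA quality covariate the differences were 3.72 in ITGB2-AS1, 3.27 in MIR646HG, 3.79 in METTL14-DT and 1.52 in LINC00537, and all 4 were called, while SND1-IT1 had 0.70 and was not called (adjusted p = 0.166).

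The largest MOLM-13 fall was that of SOCS2-AS1, antisense to the gene of a suppressor of cytokine signaling. It read 2.19, 2.20 and 2.20 in treated cells, against 6.41, 6.44 and 6.49 in vehicle cells (-4.25 ± 0.29, adjusted p = 2.38e-10), and -3.24 with the covariate. In MV4-11 cells on day 6 it read 4.35, 3.73 and 2.80 in treated cells, against 2.59, 2.49 and 2.48 in vehicle cells (1.11, adjusted p = 0.00227). MBNL1-AS1, antisense to the gene of a splicing regulator, read 4.93, 5.93 and 4.92 in treated MOLM-13 cells, against 7.27, 7.11 and 6.90 in vehicle cells (-1.83, adjusted p = 1.73e-07). None of these groups overlapped. LINC00563 read 2.29, 3.27 and 2.23 in treated cells, against 4.49, 4.21 and 4.56 in vehicle cells (-1.82, adjusted p = 1.42e-08). It passed the filter only through these vehicle arrays, since all 18 MV4-11 arrays read 2.19. NCK1-DT differed by -1.66 and by -0.50 with the covariate, which remained called (adjusted p = 0.0358). LINC00667 differed by -1.63 on its main probe set (-0.87 with the covariate) and by -0.10, 0.25 and 0.13 on 3 others, so the probe sets of this gene disagree. With the covariate 105 members were called in MOLM-13 cells (70 higher and 35 lower), against 192 without it. The share of all genes called with the covariate is not given here, so the drop is not read as a trait of the members.

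On day 6, 109 members were called in both lines (63% of the MV4-11 and 56.8% of the MOLM-13 calls, and 43.3% of all genes were called in both). Of these 61 were higher in both, 19 lower in both and 29 opposite, 14 of which were higher in MV4-11 and lower in MOLM-13 cells. Opposite calls made up 26.6% of the 109, against 17.9% over all genes. The effect itself differed between the lines in 160 members (47.3%, against 52% of all genes). Of these 71 (21%) had a higher effect in MOLM-13 cells, against 19.4% of all genes, and 89 (26.3%) a lower one, against 32.7%. The split was 104 and 72 after a further quantile normalization and 96 and 72 with a common median, which moved the median of all genes by 0.13 and 0.16.

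**Figure D3:**
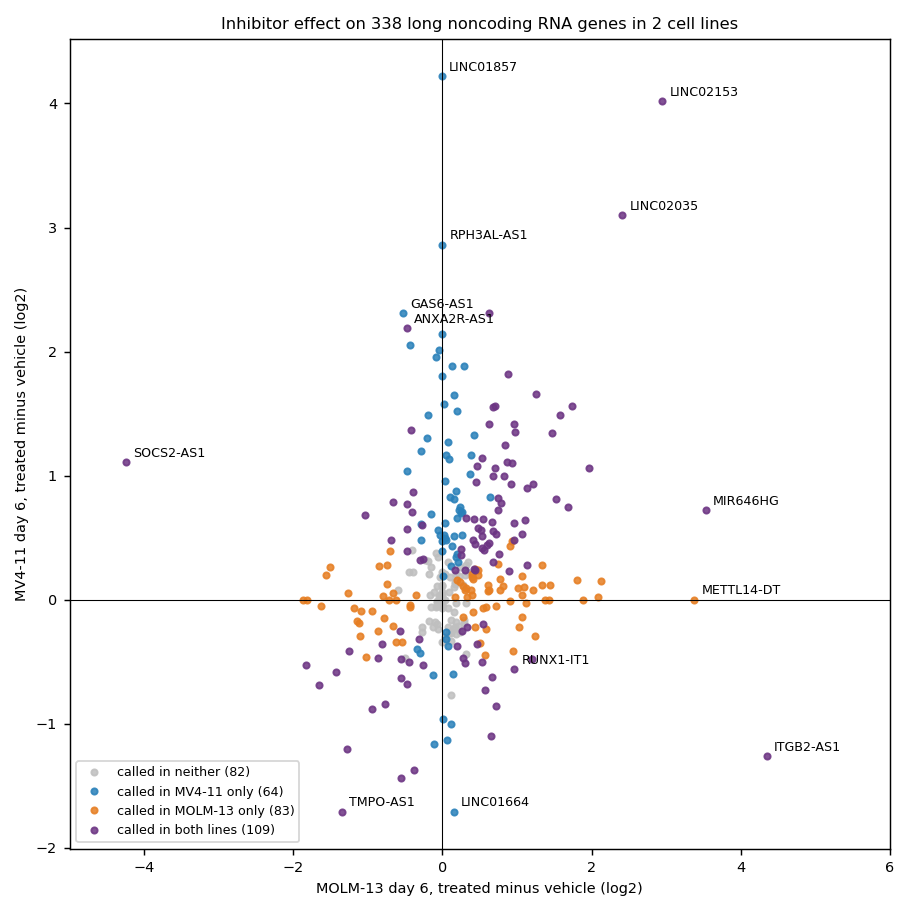
Difference between treated and vehicle cells on day 6 in MOLM-13 (x axis, log2) and MV4-11 cells (y axis, log2) for 338 noncoding genes, each a point coloured by the line in which limma called it. LINC02153 (2.95 and 4.02) and LINC02035 (2.41 and 3.10) lie high on both axes, and ITGB2-AS1 (4.35 and -1.26) and SOCS2-AS1 (-4.25 and 1.11) lie in opposite corners.

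The difference in effect, MOLM-13 minus MV4-11, was 5.61 ± 0.34 in ITGB2-AS1 (adjusted p = 1.3e-10) and -5.36 in SOCS2-AS1 (adjusted p = 2.82e-09). It was -4.22 in LINC01857, -2.86 in RPH3AL-AS1 and -2.67 in ANXA2R-AS1, all called. LINC01857 and RPH3AL-AS1 had no measurable level in MOLM-13 cells, so their values restate the MV4-11 rises with the sign changed. LINC02153 and LINC02035 rose in both lines. Their vehicle MOLM-13 arrays stood at 2.51 to 2.72, near the lowest value, so the sizes of these rises are not compared between the lines. In SNHG4 the effects differed by -0.08 (adjusted p = 0.802).

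The lines also differed without inhibitor. In vehicle cells 223 members were called between the lines (66%, against 63.8% of all genes). In MOLM-13 cells 100 (29.6%) were higher, against 30.7%, and 123 (36.4%) lower, against 33%, with 112 and 105 after a further quantile normalization and 98 and 128 with a common median. PRR34-AS1 read 10.36, 10.39 and 10.47 in MOLM-13 cells, against 3.58, 3.58 and 3.76 in MV4-11 cells (6.76, adjusted p = 2.71e-21). LINC00899 read 8.17, 8.28 and 8.56 in MOLM-13 cells, against 2.19 in all 3 MV4-11 arrays (6.15, adjusted p = 3.18e-23). LINC00996 read 4.35, 4.58 and 3.23 in MOLM-13 cells, against 10.10, 10.18 and 9.95 in MV4-11 cells (-6.02, adjusted p = 5.09e-15). These groups lay far apart. Some genes with a large MOLM-13 response started from another level there: vehicle MOLM-13 minus vehicle MV4-11 was 3.93 in SOCS2-AS1 and -3.19 in MIR646HG. The levels of MIR646HG in treated MOLM-13 cells (8.19 to 8.73) lay just below those in treated MV4-11 cells on day 6 (8.78 to 8.91).

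The 5 snoRNA hosts moved apart from each other. SNHG32 read 12.57, 12.51 and 12.54 in treated MV4-11 cells on day 2, against 12.21, 12.29 and 12.19 in vehicle cells (0.31 ± 0.08, adjusted p = 0.01). On day 6 it read 13.56, 13.49 and 13.24 in treated cells, against 12.42, 12.27 and 12.21 in vehicle cells (1.13, adjusted p = 1.99e-10). Treated arrays lay above vehicle arrays, and the MOLM-13 difference was 0.09 (adjusted p = 0.312), or 0.44 with the covariate (adjusted p = 0.00213). SNHG4, with the longest pyrimidine run of the 4 starts shown, read 5.41, 5.24 and 5.81 in treated MV4-11 cells on day 6, against 6.40, 6.73 and 6.93 in vehicle cells (-1.20, adjusted p = 3.59e-06). In MOLM-13 cells it read 4.51, 4.22 and 4.85 in treated cells, against 6.00, 5.90 and 5.53 in vehicle cells (-1.28, adjusted p = 1.43e-06). It was thus lower in treated cells of both lines.

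SNHG33 read 8.13, 8.10 and 8.35 in treated MV4-11 cells on day 6, against 7.19, 6.88 and 6.24 in vehicle cells (1.42, adjusted p = 7.59e-07). It rose by 0.82 on day 2 and by 0.63 in MOLM-13 cells, and by 0.27 there with the covariate, which was not called (adjusted p = 0.523). SNHG19 rose by 0.20, 0.33 and 0.24 on days 2, 4 and 6 and by 0.17 in MOLM-13 cells. On day 6 it was 0.13 with the covariate (adjusted p = 0.0829). Its day 2 call was lost without any of the 6 arrays (0.18 to 0.21) and its MOLM-13 call without treated array 2 or vehicle array 1 (0.12 to 0.13), and it was -0.06 there with the covariate (adjusted p = 0.662). SNHG17 read 11.41, 11.46 and 11.45 in treated MOLM-13 cells, against 10.84, 10.74 and 10.89 in vehicle cells (0.62, adjusted p = 1.13e-06), or 0.33 with the covariate (adjusted p = 0.0378). A second probe set, with a mean of 9.25, differed by 0.10 there, so the probe sets disagree in size. On the main probe set the differences in MV4-11 cells were -0.09, -0.08 and 0.08, none called.

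Genes that share features with the snoRNA hosts were followed as lists chosen with earlier results of these data known. For scale, 12.5%, 46.2% and 62% of all genes were called on days 2, 4 and 6 and 65.8% in MOLM-13 cells. Of 24 translation machinery mRNAs with a pyrimidine start 17 were tested, and 1, 7 and 10 rose and 0 fell on days 2, 4 and 6. In MOLM-13 cells 3 were higher and 4 lower (median 0.12 on day 6 and 0.01 in MOLM-13, against 0.04 and -0.03 over all genes). A further quantile normalization and a common median moved the day 6 median of all genes in MV4-11 cells by -0.08 and -0.07. The list was not counted again with them. NAP1L1, a histone chaperone gene, rose by 0.38 on day 6 in MV4-11 cells and fell by 0.27 in MOLM-13 cells, or -0.21 with the covariate (adjusted p = 0.0824). Of 15 genes for proteins of snoRNA particles 13 were tested. On day 2 limma called 0, on day 4 3 were higher and 4 lower, on day 6 0 higher and 8 lower, and in MOLM-13 cells 0 higher and 11 lower (median -0.25 on day 6 and -0.47 in MOLM-13). NOP10, a subunit of the particles that guide pseudouridylation, read 12.62, 12.53 and 12.26 in treated MV4-11 cells on day 6, against 13.24, 13.35 and 13.27 in vehicle cells (-0.82, adjusted p = 1.59e-07). It differed by -0.76 in MOLM-13 cells (adjusted p = 3.91e-07), or -0.28 with the covariate (adjusted p = 0.0307). RUVBL1, an ATPase of particle assembly, differed by -0.77 and -0.76 (-0.50 in MOLM-13 cells with the covariate), and GAR1, another subunit, by -0.51 and -0.47. The treated arrays of NOP10 lay below the vehicle arrays.

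Other long noncoding RNAs, outside the naming rule, were counted too. The shares of all genes called were 12.5%, 46.2% and 62% on days 2, 4 and 6 and 65.8% in MOLM-13 cells. Of 23, 13 were tested, with 0 called on day 2, 5 higher and 0 lower on day 4, 8 higher and 1 lower on day 6, and 4 higher and 3 lower in MOLM-13 cells. MALAT1, a nuclear speckle RNA, read 12.46, 12.28 and 12.66 in treated MV4-11 cells on day 6, against 11.56, 11.39 and 11.23 in vehicle cells (1.07, adjusted p = 1.6e-08). ZFAS1, a snoRNA host, rose by 0.51 on day 4 and 0.58 on day 6, and KCNQ1OT1, the antisense RNA of an imprinted locus, by 1.33 on day 6. Of 14 factors of nonsense-mediated decay, which degrades many host RNAs after splicing, 8 were tested. They counted 0 called on day 2, 0 higher and 4 lower on day 4, 1 and 2 on day 6, and 3 and 4 in MOLM-13 cells. UPF2, a core factor, fell by 0.39 on day 4, by 0.40 on day 6 and by 0.27 in MOLM-13 cells, there -0.12 with the covariate (adjusted p = 0.396).

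Of the 9 microRNA hosts 0 were higher and 1 lower on day 2 (11.1%, against 12.5% of all genes called), and 4 and 0 on day 4 (44.4%, against 46.2%). On day 6 the counts were 5 and 1 (66.7%, against 62%), and in MOLM-13 cells 4 and 3 (77.8%, against 65.8%), so these shares lay near those of all genes. MIR181A2HG read 7.74, 7.95 and 8.45 in treated MV4-11 cells on day 6, against 6.51, 6.48 and 6.69 in vehicle cells (1.49 ± 0.17, adjusted p = 4.52e-07). MIR550A3HG read 7.23, 7.50 and 7.39 in treated cells, against 6.04, 5.91 and 6.07 in vehicle cells (1.37, adjusted p = 5.34e-09). Treated arrays lay above vehicle arrays in both. In MOLM-13 cells MIR181A2HG differed by -0.20 (adjusted p = 0.336), or -0.79 with the covariate (adjusted p = 0.0368), and MIR550A3HG by -0.42 (adjusted p = 0.00368), or -0.50 with the covariate (adjusted p = 0.0797). MIR646HG rose by 0.72 in MV4-11 cells on day 6, against its 3.53 in MOLM-13 cells.

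MIRLET7BHG, host of the let-7a and let-7b sequences above, read 5.14, 4.79 and 5.08 in treated MV4-11 cells on day 2, against 5.67, 6.06 and 5.55 in vehicle cells (-0.76, adjusted p = 0.00189). Its day 6 difference was -0.36 (adjusted p = 0.0426), a call lost without treated array 3 (-0.18) or vehicle array 3 (-0.26), or with the covariate (-0.22, adjusted p = 0.315). In MOLM-13 cells it read 9.30, 9.63 and 9.40 in treated cells, against 8.97, 9.05 and 8.92 in vehicle cells (0.46, adjusted p = 0.0105), 0.37 without treated array 2 (adjusted p = 0.059) and 0.76 with the covariate (adjusted p = 0.0353). So it fell early in one line and was higher in the other. MIR1915HG read 5.39, 5.83 and 5.67 in treated MOLM-13 cells, against 7.43, 6.89 and 7.10 in vehicle cells (-1.51, adjusted p = 1.46e-07). MIR9-3HG read 9.85, 10.03 and 9.77 in treated MOLM-13 cells, against 8.71, 8.80 and 8.96 in vehicle cells (1.06, adjusted p = 0.000298), but -0.03 with the covariate (adjusted p = 0.952). MIR4435-2HG rose by 0.46 in MV4-11 cells on day 6 and by 0.63 in MOLM-13 cells. MIR570HG had 0.32 and -0.30, lost in MV4-11 cells without array 1 or 2 of either group (0.23 to 0.30) and in MOLM-13 cells without treated array 1 or 3 or vehicle array 1 or 2 (-0.30 to -0.27) or with the covariate (-0.09, adjusted p = 0.765), and MIR1-1HG was not called.

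Among 9 microRNA processing genes 8 were tested. They counted 1 higher and 1 lower on day 2, 3 and 1 on day 4, and 5 and 1 on day 6. In MOLM-13 cells 6 were higher and 2 lower. Over all genes 12.5%, 46.2%, 62% and 65.8% were called in these comparisons. AGO2, the Argonaute protein that cuts targets, read 8.59, 8.75 and 8.40 in treated MV4-11 cells on day 6, against 9.77, 9.83 and 9.89 in vehicle cells (-1.25, adjusted p = 2.63e-08). It fell by 0.71 in MOLM-13 cells. The other Argonaute genes moved the other way: AGO1 rose by 0.70, AGO3 by 0.70 and AGO4 by 0.68 on day 6, and by 0.43, 0.98 and 0.65 in MOLM-13 cells.

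Antisense, divergent and intronic members were then set against the coding gene of their symbol, in 189 pairs in which both were tested. In each MV4-11 array the member's log2 value minus the partner's was taken, and the mean difference between treated and vehicle arrays over the 3 days was tested with an exact permutation test within days, two-sided, over 8000 arrangements. The smallest p it can give is 0.00025. After adjustment over the 189 pairs 108 were called (57.1%), 63 with the member up against its partner and 45 with it down, and 120 had an unadjusted p under 0.05. The 189 pairs include members at the lowest value in MV4-11 arrays, such as PPP1R3B-DT. For those the pair difference is the change of the partner alone. After a further quantile normalization 107 were called, 47 up and 60 down. By annotated starts, 48 of 84 pairs on opposite strands within 1000 bases were called, and 28 of 49 farther apart. On the same strand 2 of 5 pairs were called, and of 51 pairs whose starts could not be placed 30 were called.

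**Figure D4:**
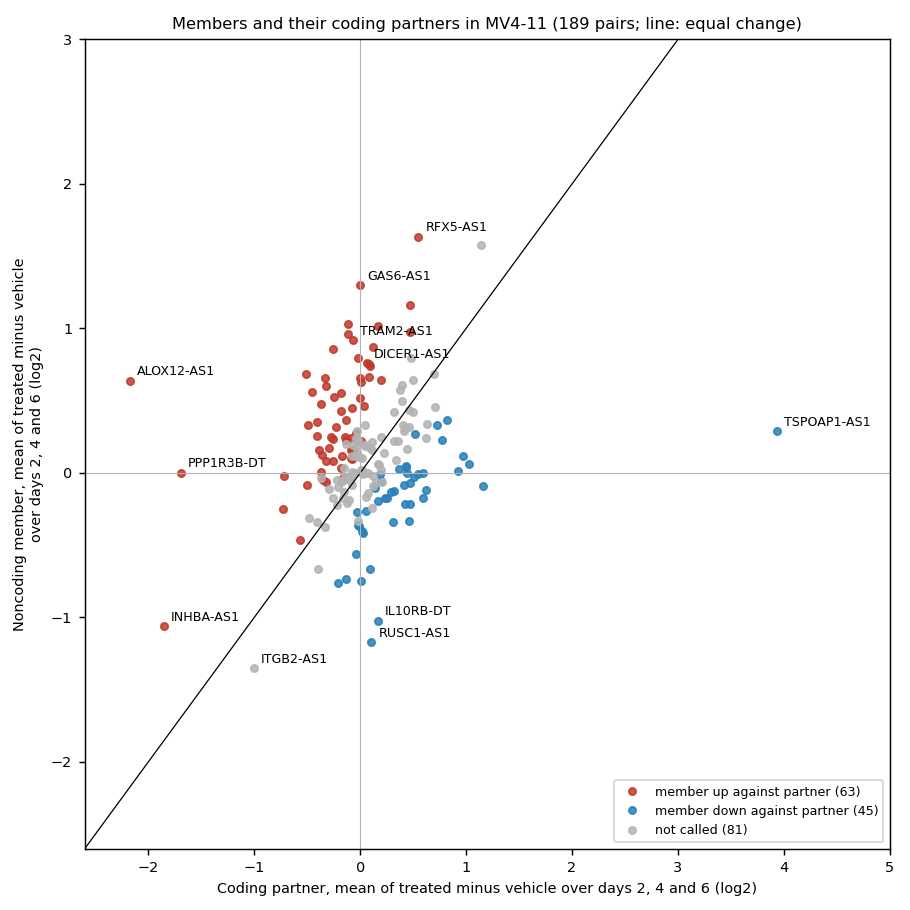
Mean treated minus vehicle difference over 3 days in MV4-11 cells of the coding partner (x axis, log2) and of the noncoding member (y axis, log2) for 189 pairs, with the line of equal change and colour by the exact permutation test. ALOX12-AS1 (pair difference 2.81) and TSPOAP1-AS1 (-3.65) lie farthest from the line among the labelled pairs.

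Where member and partner were both called, they moved the same way in 5 of 6 pairs on day 2, 24 of 42 on day 4, 38 of 66 on day 6 and 55 of 80 in MOLM-13 cells. For pairs within 1000 bases these counts were 2 of 2, 11 of 18, 16 of 28 and 17 of 25. Other pairs with both called went opposite ways, also among those with close starts. A share for unrelated genes was not taken, so these counts are not read as a trait of the pairs. Directions were counted with the values as deposited and not again after the further quantile normalization. The direction of a probe set relative to its gene's strand was not checked, and unspliced RNA of the partner could be read by a member's probes. That was not tested.

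RUSC1-AS1, whose start lies 331 bases from that of the adaptor gene RUSC1, fell on day 6, when the difference of its partner did not pass the test. Day 6 values were 7.90, 7.54 and 7.90 in treated cells, against 9.21, 9.34 and 8.92 in vehicle cells (-1.37, adjusted p = 2.83e-07). RUSC1 read 8.89, 8.82 and 8.64 in treated cells, against 8.71, 8.87 and 8.93 in vehicle cells (-0.05, adjusted p = 0.657). Treated arrays lay below vehicle arrays for the antisense RNA and overlapped them for RUSC1, with a pair difference of -1.28 (exact p = 0.00025, adjusted 0.00128). A second probe set of RUSC1-AS1 gave -0.15, -0.36 and -0.05 on days 2, 4 and 6, so the probe sets disagree in size. On day 4 RUSC1 was called higher (0.24, adjusted p = 0.0369), a call lost without array 2 or 3 of either group (0.17 to 0.24).

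IL10RB-DT, 107 bases from the gene of a subunit of the interleukin receptor IL10R, read 6.74, 7.29 and 7.24 in treated cells on day 4, against 8.79, 8.46 and 8.67 in vehicle cells (-1.55 ± 0.13, adjusted p = 1.35e-08). On day 6 it read 7.23, 7.21 and 7.19 in treated cells, against 8.48, 8.45 and 8.19 in vehicle cells (-1.16, adjusted p = 3.49e-07). IL10RB read 10.84, 10.92 and 10.51 in treated cells on day 6, against 10.75, 10.51 and 10.27 in vehicle cells (0.25, adjusted p = 0.0763), or 0.48 with the covariate (adjusted p = 0.00239). The divergent RNA was lower in every treated array and the coding gene overlapped, with a pair difference of -1.19 (exact p = 0.00025, adjusted 0.00128). In MOLM-13 cells IL10RB-DT differed by -0.12 (adjusted p = 0.462).

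TRAM2-AS1, 142 bases from TRAM2, a gene of protein translocation into the endoplasmic reticulum, read 6.48, 6.31 and 6.11 in treated MV4-11 cells on day 6, against 5.26, 5.19 and 5.14 in vehicle cells (1.10, adjusted p = 9.75e-06). It also rose by 0.86 on day 2, by 0.79 on day 4 and by 0.93 in MOLM-13 cells. TRAM2 differed by -0.04, 0.04, -0.20 and -0.11, none called, and the pair difference was 0.99 (exact p = 0.00025, adjusted 0.00128). RFX5-AS1 and RFX5, a factor of MHC class II transcription, both rose on day 6, by 2.05 and 0.62, with a pair difference of 1.08 (exact p = 0.00025, adjusted 0.00128). METTL14-DT, 51 bases from the gene of a subunit of the RNA adenosine methyltransferase, showed its rise of 3.38 in MOLM-13 cells. METTL14 read 10.06, 10.28 and 9.86 there in treated cells, against 9.77, 9.75 and 9.84 in vehicle cells (0.28, adjusted p = 0.00625, a call lost without treated array 2, at 0.17, and with the covariate, at -0.01).

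**Figure D5:**
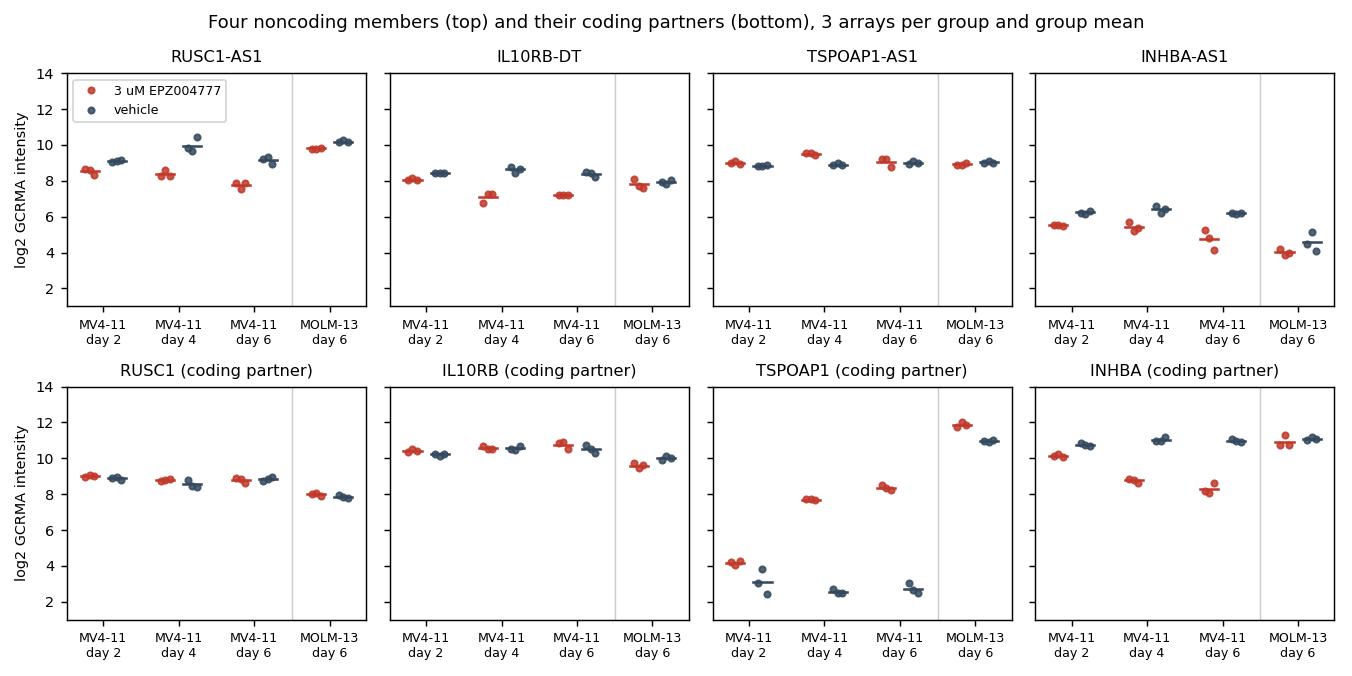
Log2 GCRMA intensity (y axis) of 4 noncoding members (top row) and their coding partners (bottom row) in each array (points, treated in red left of vehicle in dark blue; the line is the mean of 3 arrays). RUSC1-AS1 and IL10RB-DT fall in treated MV4-11 cells beside partners whose arrays overlap on day 6. On that day TSPOAP1 rises by 5.61, from near the lowest value, beside a member at 0.06, and INHBA falls by 2.69 beside INHBA-AS1 at -1.44.

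In other pairs the coding gene changed more. ALOX12, a lipoxygenase gene, read 7.76, 7.54 and 7.67 in treated cells on day 6, against 10.69, 10.71 and 10.66 in vehicle cells (-3.03, adjusted p = 1.64e-17). ALOX12-AS1 read 7.95, 7.90 and 7.66 in treated cells, against 7.15, 7.54 and 7.15 in vehicle cells (0.56, adjusted p = 0.000741). Both groups stood apart, in opposite directions, with a pair difference of 2.81 (exact p = 0.00025, adjusted 0.00128). TSPOAP1, which encodes a partner of a mitochondrial outer membrane protein, read 8.49, 8.32 and 8.23 in treated cells on day 6, against 3.04, 2.68 and 2.48 in vehicle cells (5.61, adjusted p = 4.52e-14). These vehicle values lay near the lowest value of 2.19, so the size of this rise, and its part in the pair difference, depends on the background adjustment. TSPOAP1-AS1 differed by 0.06 on that day (adjusted p = 0.599), or 0.26 with the covariate (adjusted p = 0.0084), and by 0.61 on day 4 (adjusted p = 1.41e-05). A second probe set of similar mean (9.02, against 9.04) gave -0.30 on day 6 and 0.50 on day 4, so the probe sets disagree on day 6. Over the 3 days the pair difference was -3.65 (exact p = 0.0005, adjusted 0.00193). INHBA, the gene of the activin A subunit, fell by 2.69 and INHBA-AS1 by 1.44 on day 6 (-0.93 with the covariate), with a pair difference of 0.80 (exact p = 0.006, adjusted 0.0127). PPP1R3B-DT, at 2.19 in all MV4-11 arrays, had no measurable level there, so its pair difference of 1.70 is that of PPP1R3B.

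In MOLM-13 cells SOCS2 and SOCS2-AS1 fell together. SOCS2 read 9.62, 9.73 and 9.70 in treated cells, against 12.94, 12.84 and 12.86 in vehicle cells (-3.20, adjusted p = 9.88e-21), beside the -4.25 of SOCS2-AS1. ANXA2R and its antisense gene differed in size: ANXA2R read 7.22, 6.96 and 7.03 in treated cells, against 11.13, 11.33 and 11.30 in vehicle cells (-4.18, adjusted p = 4.03e-11). ANXA2R-AS1 read 8.35, 8.15 and 8.31 in treated cells, against 8.64, 8.87 and 8.75 in vehicle cells (-0.48, adjusted p = 0.0119, and -0.54 with the covariate, adjusted p = 0.168). In MV4-11 cells both rose on day 6, ANXA2R by 1.80 and ANXA2R-AS1 by 2.19. ITGB2 rose by 0.54 in MOLM-13 (1.07 with the covariate) and fell by 1.63 in MV4-11 cells on day 6, the directions of ITGB2-AS1 in each line, whose pair difference over the MV4-11 days was -0.35 (exact p = 0.182, adjusted 0.236).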

How the data were processed

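The deposited values are 1 intensity per probe set and array, on a linear scale from 4.551 to 71593, made by the authors with GCRMA per the submitters' processing notes (version not given in the sources used here). Per the labels' protocols, RNA was column purified with DNase and amplified to biotin-labelled antisense RNA. The log2 of each intensity was taken with a pseudocount of 0. Of 54675 probe sets, 41091 were listed with 1 gene symbol in the platform annotation (1801 several, 11777 none), 41037 of them matched in RefSeq. A gene was read from its probe set with the highest mean, and tested where the log2 value was 4 or more in at least 3 of the 24 arrays.

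The 8 groups entered 1 model in limma 3.58.1 (R 4.3.3), with empirical Bayes moderation and Benjamini-Hochberg adjustment over 10971 genes, a step tested on simulated data. Pairs of member and partner were tested with an exact permutation test in Python 3.11.15 with numpy 2.4.6. The number of arrays limits the precision. Treated and vehicle arrays of one replicate number did not deviate together (correlations of -0.26 to 0.10), so the numbers were not taken as pairs.

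The members, the lists and the tests were chosen with earlier results of these data known. Genes to name were, among tested members, the 8 largest rises and falls per treatment comparison among called members whose arrays do not overlap, all snoRNA and microRNA hosts, members with a tested partner where either was called, the 5 most positive and negative of each other comparison, and the 3 with the highest and lowest mean. The partners, DOT1L and the genes of the lists were added, and the text gives a part of all these.

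Alternatives were a second quantile normalization, a common median, no filter or a minimum of 6, the mean of probe sets, only the arrays of a comparison, a trended and robust eBayes, the RNA quality covariate, a 2-fold minimum, other vehicle arrays for day 4, days 2 and 6 only for pairs, the replicate number as a block and each array left out.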

Additional observations from a re-analysis of the deposited data

Results flagged for a closer look

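Tests of a difference in inhibitor effect between the lines on day 6, or between days 6 and 2 in MV4-11 cells, picked out 20 results, the most positive and most negative called differences of each test. Values are log2 differences in effect from limma. MOLM-13 minus MV4-11, the effect was higher by 5.61 in ITGB2-AS1 (adjusted p = 1.3e-10), 3.38 in METTL14-DT (adjusted p = 5.37e-08), 2.81 in MIR646HG, 2.06 in TRHDE-AS1 and 1.98 in ASAP1-IT1. It was -5.36 in SOCS2-AS1 (adjusted p = 2.82e-09), -4.22 in LINC01857 (adjusted p = 3.7e-15), -2.86 in RPH3AL-AS1, -2.83 in GAS6-AS1 and -2.67 in ANXA2R-AS1.

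Day 6 minus day 2 in MV4-11 cells, the effect was higher by 3.85 in LINC02153 (adjusted p = 2.26e-10), 3.77 in LINC01857, 2.59 in LINC02035, 2.08 in LINC01140 and 1.89 in LINC00663. It was -1.64 in TMPO-AS1 (adjusted p = 1.3e-05), -1.10 in SNHG4, -0.99 in ITGB2-AS1, -0.86 in FGF14-AS2 and -0.85 in LINC00957. The call of ITGB2-AS1 (adjusted p = 0.0277) was lost without treated array 3 or vehicle array 3 of day 2, treated array 1 or 2 of day 6, or vehicle array 1 or 2 of day 6 (-0.97 to -0.61). LINC01857, LINC02153, LINC01140, METTL14-DT, RPH3AL-AS1, SOCS2-AS1 and TRHDE-AS1 stood at or near the lowest value of the files (2.19 on the log2 scale) in at least 1 of the groups compared, where no level is measured.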

How the results depend on the processing

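Of 359 results for named genes, 231 were called and 179 of those kept their direction and side of the threshold in every alternative run, 50 lost the call in at least 1 and 6 turned in at least 1. With a minimum change of 2-fold the called members were 3, 33, 57 and 56 on days 2, 4 and 6 and in MOLM-13 cells. These were 0.888%, 9.76%, 16.9% and 16.6% of members, against 1.3%, 7%, 11.7% and 12.8% of all genes. The counts were 33 for day 6 minus day 2 (9.76%, against 7.02%) and 75 for the difference between lines (22.2%, against 13.4%). Between vehicle lines 104 were called (30.8%, against 17%), and for day 4 vehicle cells 3 (0.888%, against 1.49%). With the 3′ to 5′ difference as a covariate 105 members were called in MOLM-13 cells, and without the filter 340 of 899 pairs were called. Shares of all genes are not given beside these and the next counts, which are not read as traits of the members. Leaving out each array gave 24 to 30, 119 to 127, 157 to 165 and 167 to 184 members on days 2, 4 and 6 and in MOLM-13 cells, 80 to 94 for day 6 minus day 2, 145 to 169 between lines, 214 to 218 between vehicle lines, 41 to 68 for day 4 vehicle cells and 101 to 110 pairs. With the replicate number as a block 36, 135, 173 and 186 members and 97 pairs were called, and 1 named call was lost. Since the samples share only a number, no pairing is read from that: each sample correlated best with its own number in 0, 0, 2 and 0 of 3 cases. Under the covariate the value turned in LINC00667 (0.31) and MIR9-3HG (-0.47) on day 6, and in MOLM-13 cells in INHBA-AS1 (0.51), SNHG19 (-0.06), MIR9-3HG (-0.03), TSPOAP1-AS1 (0.32), IL10RB (0.05) and METTL14 (-0.01). With the mean of probe sets it turned in LINC00667 (0.68) and MIR9-3HG (-0.49) on day 6. After a further quantile normalization MIR1-1HG was -0.28 on day 6 and -0.23 in MOLM-13 cells, and with the vehicle arrays of days 2 and 6 the day 4 value was 1.34 in SNHG33 and -0.06 in RUSC1. The cause was not tested. Genes whose arrays sit at the lowest or a repeated value have no measurable level, which limits their fold changes.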
